A study of Mus musculus with 3 samples.

Results

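The genes described here encode the 8 factors through which cells sense and answer oxygen: the α subunits of the hypoxia-inducible factors (HIFs) *Hif1a*, *Epas1* (which encodes HIF2α) and *Hif3a*, their partner *Arnt* (HIF1β), the degradation factor *Vhl*, and the prolyl hydroxylases *Egln1*, *Egln2* and *Egln3*. They were chosen by symbol, as 8 of the 28692 genes listed, and their unique molecular identifiers (UMIs, tags that let amplified copies of a transcript be counted once) were followed across the cell types of the lung. The scRNA-Seq libraries came from whole lungs of 3 WT C57BL/6 mice, 1 library per mouse, taken at P14 after housing in room air (RA) from P1. The mice, numbered 2, 3 and 4, form a single group without a treated or mutant counterpart, so every comparison is between cell types of the same lungs. No hypoxic or hyperoxic lung was analyzed here, and the levels below are those of transcripts, not of proteins.

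When oxygen is sufficient, the prolyl hydroxylases hydroxylate the α subunits, VHL binds the hydroxylated form, and its ubiquitin ligase marks it for degradation. When oxygen is low, the α subunits escape hydroxylation, pair with ARNT and switch on genes of glycolysis, angiogenesis and iron and matrix handling. The control is therefore mostly on protein stability. HIF2α is known for its place in endothelium and in surfactant-producing epithelium, HIF1α is present in most tissues, and *Egln3* is itself a well-known HIF target.

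The libraries held 22476491 to 25192427 UMIs. Of 9644 deposited cells, 7642 passed filters on genes and mitochondrial UMIs, 2386 to 2655 per mouse. They were clustered with the 8 genes and their pathway left out, and clusters were named from marker genes as endothelial-like (ECs, 962 cells), epithelial-like (1256), stromal-like (1497) or immune-like (3027), while 900 cells of 7 clusters stayed unnamed. The EC markers summed to 9332 to 9668 counts per 1e6 UMIs (CPM) in ECs and to 23.8 to 212 CPM in the other classes. A sub-cluster of 86 ECs (median 1503 UMIs) was led, against the other ECs, by *Cd74*, *Iglc1* and *Ighm*. Another of 83 ECs (median 916 UMIs) was led by *Mfap4*, *Col1a2* and *Col1a1*. Neither was given a type, but their cells stayed in the EC class, and the part of RNA from other cells in them was not tested. Pairs of libraries shared 2 to 5 cell barcodes. Within the classes, 20 cell types with enough cells per mouse were followed, and a cluster of 23 lymphatic EC-like cells is given only as a pooled sum. Their names mean only that a cluster resembled that type, they were rebuilt here rather than deposited, and the clusters were known when the limits for naming them were set. Free RNA in droplets gives some UMIs of a gene to cells that do not make it, so B cell-like cells, which had 25.03 ± 9.07 CPM of *Epas1* (SD, n = 3 mice), served as a guide to the background of that gene. The guide is rough. It was not adjusted for median depth, which was 3960.5 UMIs in B cell-like, 2127 in neutrophil-like and 10665 in myofibroblast-like cells.

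The abundance of the 8 transcripts covered a wide range. *Epas1* had 35828 UMIs in the kept cells, *Hif1a* 6923, *Egln1* 3894, *Egln2* 3858, *Arnt* 3708 and *Vhl* 1439. The remaining members were rare, with 187 UMIs of *Egln3* in 141 cells and 118 UMIs of *Hif3a* in 100 cells. The 3′ UMIs count transcripts whatever their length, so levels were not divided by length. ECs held 68.2% ± 1.83 of all *Epas1* UMIs, whereas stromal-like cells held 35.5% ± 0.61 of *Hif1a*, 75.7% ± 5.31 of *Hif3a* and 64.2% ± 13.5 of *Egln3*. Such shares depend on how many cells of each class were captured and on their depth. The immune-like share of all cells ranged from 29.3% to 55.1% over the mice. Median depth was 7576.5 UMIs in ECs, 16222.5 in epithelial-like, 10633 in stromal-like and 3865 in immune-like cells.

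**Figure D1:**
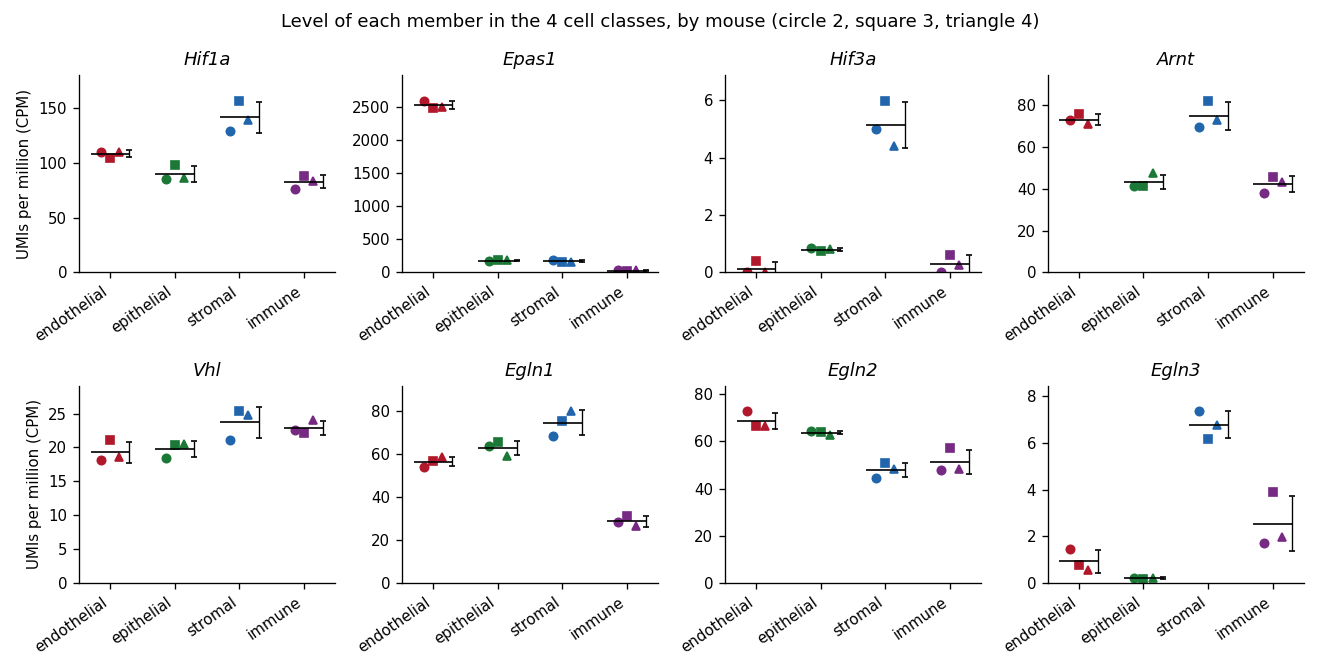
Level of each of the 8 genes (CPM, y axes that differ between panels) in the endothelial, epithelial, stromal and immune classes. Points are the sums of mice 2, 3 and 4, the line is the mean and the bar the SD; *Epas1* in ECs (2494 to 2603 CPM) lies far above every other class, while *Hif3a* and *Egln3* are highest in the stromal class.

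*Epas1* (ENSMUSG00000024140, chr17:86753700-86833410, plus strand, GRCm38) was the EC member of the family. Its class sums in ECs were 2603, 2494 and 2504 CPM in mice 2, 3 and 4. Epithelial-like cells had 168, 184 and 184 CPM and stromal-like cells 183, 159 and 159 CPM, and these ranges overlapped. Immune-like cells were lowest with 32.1, 22.1 and 28.5 CPM, so that every EC sum lay above every other sum.

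With edgeR's quasi-likelihood test on the UMIs summed per mouse, *Epas1* was higher in ECs than in epithelial-like cells by 3.34 on the log2 scale (SE 0.12, adjusted p = 4.37e-12), than in stromal-like cells by 3.81 (SE 0.13, adjusted p = 2.76e-12) and than in immune-like cells by 6.29 (SE 0.15, adjusted p = 6.67e-14). It was also higher in epithelial-like and in stromal-like than in immune-like cells, by 2.95 and 2.48 on the log2 scale. At least 1 *Epas1* UMI was found in 98.9% ± 0.60 of ECs (951 of 962 cells, median depth 7576.5 UMIs) and in 6.90% ± 0.13 of B cell-like cells (123 of 1784, median depth 3960.5 UMIs). With each cell thinned to 1000 UMIs, which left out 74 ECs and 5 B cell-like cells, the shares were 88.4% ± 1.12 and 2.09% ± 0.20.

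Among the cell types, *Epas1* was highest in capillary ECs of the *Aplnr* type, with 3008, 3082 and 3113 CPM in the 3 mice. *Car4*-type capillary ECs (2244 ± 174 CPM), venous ECs (2071 ± 324) and arterial ECs (2018 ± 199) followed with overlapping ranges, all below the *Aplnr* type. Despite the gap in levels, *Epas1* did not pass the test between *Car4*-type and *Aplnr*-type capillary ECs (log2 difference -0.48, SE 0.23, adjusted p = 0.212) or between arterial and *Aplnr*-type ECs (-0.57, SE 0.23, adjusted p = 0.0782). The arterial difference passed in 6 of 12 other settings, among them the mouse as a block (edgeR adjusted p = 0.0361, where 17.4% of genes did), leaving out mouse 3 (-0.64, adjusted p = 0.0417, 13.1% of genes) and no filter on low counts (-0.62, adjusted p = 0.00296, 10.7% of genes). The *Car4*-type difference passed in 1 of 12, without that filter (-0.53, adjusted p = 0.0275, 5.85% of genes).

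Pericyte-like cells came next. Their *Epas1* levels were 1046, 1145 and 1248 CPM, below the 4 EC types with sums per mouse and above every remaining one of the 20 types in each mouse. The small lymphatic EC-like cluster lay lower, with a pooled 523 CPM from 197 UMIs (exact 95% interval 453 to 602, counting error only), or 761 CPM without the 8 of its 23 cells marked as doublets. An *Epas1* UMI was present in 98.1% ± 1.71 of pericyte-like cells (89 of 91), and in 63.8% ± 0.89 after thinning to 1000 UMIs. The 6 EC class markers summed to 164 to 267 CPM in pericyte-like cells, against 6074 to 16511 CPM across the 4 EC types. B cell-like cells had 263 to 297 CPM of these markers. The sum does not tell which of the 6 genes gave those UMIs, nor whether B cell-like cells made them. It is therefore no measure of EC RNA in immune-like cells. Smooth muscle-like cells had 17.7 to 31.5 CPM and myofibroblast-like cells 17.6 to 56.7 CPM. *Col14a1*-type fibroblast-like cells had 20.4 to 143 CPM and the *Col13a1*-type 26.8 to 403 CPM. The *Col14a1*-type cluster (100 cells) was led by *Dcn*, *Col2a1* and *Col10a1*, with *Col11a1* and *Acan* also among its leading genes but not *Col14a1*, so its name is loose. Doublet-marked cells held 39 of the 818 *Epas1* UMIs of pericyte-like cells. How much of the pericyte-like *Epas1* came from EC RNA was not tested.

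Club-like (340 ± 34.9 CPM) and smooth muscle-like cells (306 ± 35.7) came next, followed by AT2-like cells with 164, 173 and 186 CPM and *Col13a1*-type fibroblast-like cells with 142, 207 and 106 CPM. The last of these overlapped AT2-like cells but none of the types below. Myofibroblast-like cells had 46.8 ± 6.13 CPM, and most immune types lay at or below the 25.03 CPM of B cell-like cells, down to 14.2 ± 5.53 CPM in NK-like cells. Levels of that size cannot be told apart from free RNA.

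**Figure D2:**
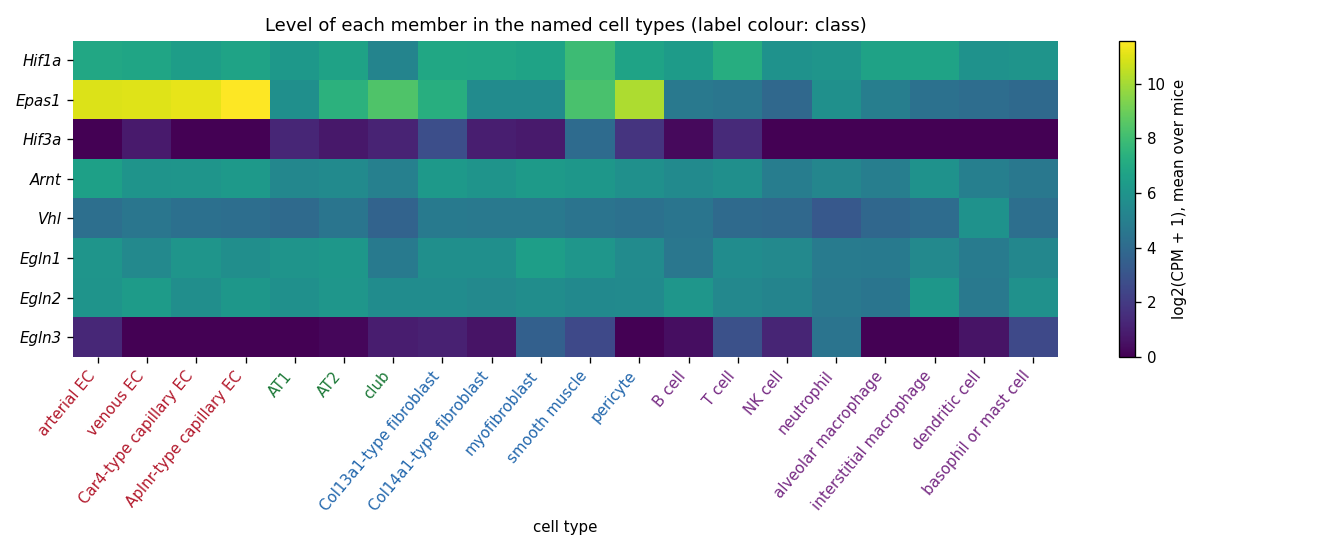
Heat map of the 8 genes (rows) in 20 named cell types (columns, label colour by class), coloured by log2(CPM + 1) averaged over the mice. *Epas1* is bright over the 4 EC types shown and pericytes, *Hif1a* is spread over all types with its highest value in smooth muscle, and *Hif3a* and *Egln3* are dark except in a few types.

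*Hif1a* (ENSMUSG00000021109, chr12:73901375-73947530, plus strand) showed a much flatter profile. Stromal-like cells had 129, 157 and 138 CPM, ECs 110, 105 and 110, epithelial-like cells 84.7, 97.7 and 85.8, and immune-like cells 76.1, 88.3 and 83.6. The stromal sums lay above all EC sums, and the EC sums above all epithelial sums, while the epithelial and immune ranges overlapped. Of the 2461 stromal *Hif1a* UMIs, 1011 lay in smooth muscle-like cells. Mean levels were 104 CPM in myofibroblast-like and 117 CPM in *Col13a1*-type fibroblast-like cells, below every stromal class sum. The EC to immune difference did not pass with TMM scaling (0.14, edgeR adjusted p = 0.159) but did without it (0.38, adjusted p = 0.0018, where 68.3% of genes passed). *Hif1a* was lower in ECs than in stromal-like cells by 0.50 on the log2 scale (SE 0.08, edgeR adjusted p = 7.38e-05) and higher in stromal-like than in immune-like cells by 0.63 (SE 0.08, adjusted p = 3.25e-06). Despite the overlap in CPM, it was higher in epithelial-like than in immune-like cells with TMM (0.34, SE 0.08, edgeR adjusted p = 0.00128). That call was lost in 1 of 13 other settings. Epithelial-like cells were lower than stromal-like cells (-0.29, SE 0.08, edgeR adjusted p = 0.00343), which held in all 13.

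For *Hif1a* in ECs against epithelial-like cells the direction depended on how the libraries were scaled. With TMM scaling, which centres each comparison on the bulk of the genes, it was lower in ECs by a log2 difference of -0.20 (SE 0.08, edgeR adjusted p = 0.0359), and this call was lost without any one of the 3 mice (-0.16 to -0.25). With scaling to the total UMIs alone, as in the CPM values, it was higher in ECs by 0.28 (SE 0.09, adjusted p = 0.0107, where 75.2% of genes passed). Over all 14203 genes tested, the median difference between ECs and epithelial-like cells was 0.05 with TMM and 0.53 without it. The share of calls that were higher in ECs was 50.9% with TMM and 70.8% without. CPM values of ECs and epithelial-like cells should be read against that shift.

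Smooth muscle-like cells had the highest *Hif1a* level, 221, 274 and 240 CPM, above every other type in each mouse. T cell-like cells followed with 148 ± 26.3 CPM. From there down to dendritic-like cells (58.3 ± 12.2 CPM) each type overlapped its neighbour in the order. Club-like cells were last with 43.6, 38.6 and 28.6 CPM, below dendritic-like cells in every mouse but overlapping NK-like cells, whose lowest value was 39.3 CPM. Among myofibroblast-like cells, the cluster led by *Aspn* and *Hhip* (446 cells) had 129 ± 8.72 CPM of *Hif1a* and the other cluster (359 cells) 77.6 ± 6.68 CPM, with no overlap between mice.

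The ratio of *Epas1* to *Hif1a* UMIs within a sum is not touched by the scaling, but free RNA was not removed from it. The *Epas1* levels of most immune types cannot be told apart from free RNA, and the immune ratios share that limit. In ECs the log2 ratio was 4.56, 4.58 and 4.51. It was 1.00 ± 0.09 in epithelial-like, 0.24 ± 0.24 in stromal-like and -1.60 ± 0.38 in immune-like cells, and the ranges of the 4 classes did not overlap. Each pair of classes gave p = 0.1 in an exact 2-sided permutation test, the smallest value that 3 sums against 3 allow. That test took the sums as independent, although both classes came from the same 3 mice.

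By type, the log2 ratio ran from 4.89 ± 0.12 in *Aplnr*-type capillary ECs to -3.02 ± 1.33 in T cell-like cells, where only 15 *Epas1* UMIs were counted. Pericyte-like (3.50 ± 0.26) and club-like cells (3.22 ± 0.36) came next below the EC types, the former with 1146 ± 101 CPM of *Epas1* and the latter with the lowest mean *Hif1a* of the 20 types. Smooth muscle-like cells had 0.58, -0.05 and 0.43, so neither α subunit was favoured in every mouse, and the signs also differed between mice in *Col13a1*-type fibroblast-like cells (0.31, 0.68 and -0.04). Myofibroblast-like cells carried more *Hif1a* than *Epas1* in all mice (-1.16 ± 0.25). In the stromal class as a whole the log2 ratio turned to -0.21 ± 0.16 under a stricter cell filter (500 genes or more, mitochondrial share of 10% or less).

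**Figure D3:**
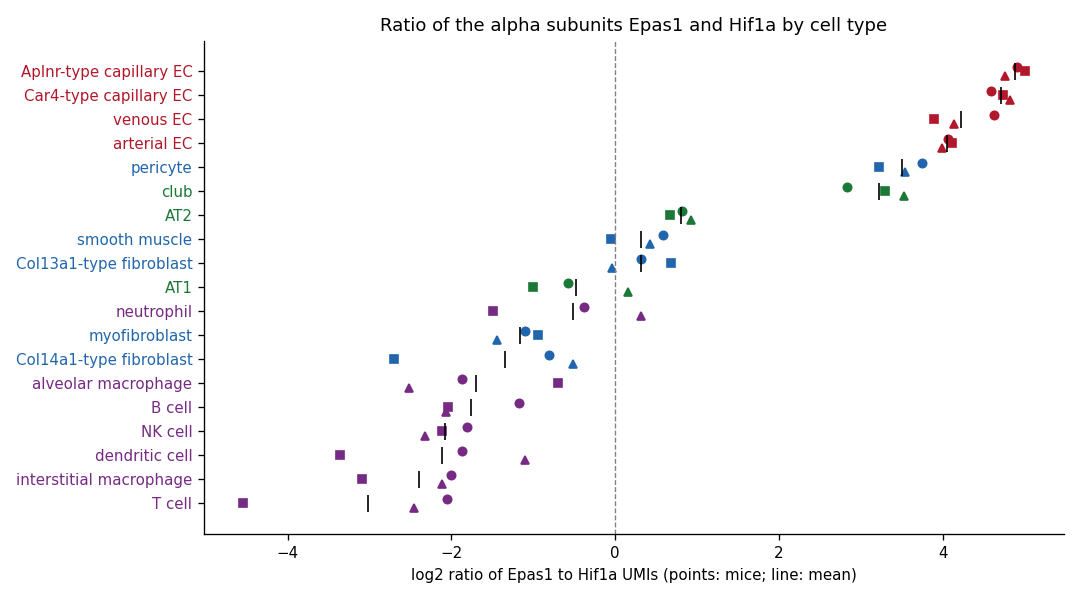
Log2 ratio of *Epas1* to *Hif1a* UMIs (x axis) for each cell type (y axis, label colour by class), with points for mice 2, 3 and 4 and a line for the mean. The 4 EC types shown, pericytes and club cells lie above 2.83 in every mouse, whereas every lymphoid, macrophage and dendritic point lies below 0. Free RNA was not removed, and the *Epas1* levels of most immune types cannot be told apart from it.

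*Hif3a* (ENSMUSG00000004328, chr7:17031507-17062427, minus strand) encodes an α subunit with splice forms that can oppose the other HIFs, and forms are not told apart by these counts. Of its 118 UMIs, 65 lay in smooth muscle-like cells. Stromal-like cells had 5.01, 5.99 and 4.42 CPM from 89 UMIs, epithelial-like cells 0.797 ± 0.05 CPM from 18 UMIs, immune-like cells 5 UMIs and ECs 1 UMI. Pooled over mice, the stromal level was 49.0 times that of ECs, with a wide exact 95% interval of 8.57 to 1958 that covers counting error only. In the edgeR fit *Hif3a* was lower in epithelial-like than in stromal-like cells (log2 difference -2.27, SE 0.40, adjusted p = 0.000121) and higher in stromal-like than in immune-like cells by 3.64 (SE 0.51, adjusted p = 1.14e-05). The filter on low counts kept *Hif3a* in that fit only through the stromal-like sums, where it is high. These tests are therefore descriptions and add no support to the pattern.

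Smooth muscle-like cells had 15.4, 16.9 and 14.8 CPM of *Hif3a*, and 51 of 291 cells (17.7% ± 1.73) had a UMI, against 0.104% ± 0.10 of B cell-like cells (median depths 10959 and 3960.5 UMIs). *Col13a1*-type fibroblast-like cells were next with 4.88, 8.63 and 4.23 CPM from 14 UMIs. Smooth muscle-like cells lay above every other type, and the fibroblast range was overlapped by T cell-like cells of mouse 3 (4.78 CPM, 2 UMIs in all mice). The pooled smooth muscle level was 2.51 times the fibroblast level (exact 95% interval 1.40 to 4.85). No *Hif3a* UMI was counted in 9 types, which allows levels of up to 0.655 CPM in *Aplnr*-type capillary ECs and up to 15.8 CPM in the few basophil- or mast-like cells. Against the *Aplnr*-type ECs the smooth muscle level was at least 23.9-fold higher, taking a floor of 3 counts over the group. The filter on low counts kept *Hif3a* out of the test between types, and without it *Hif3a* was lower in myofibroblast-like than in *Col13a1*-type cells (edgeR log2 difference -2.82, SE 0.76, adjusted p = 0.00163, where 18.8% of genes were called).

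The promoter of *Hif3a* is shown because its UMIs lay in few types, with the core of the element that HIFs bind in capitals. The motifs searched were ACGTG and GCGTG on either strand (CACGT and CACGC in reverse, where overlaps count separately), in the 250 bases before the start (RefSeq, GRCm38.p6, chr7:17062428-17062677, minus strand).
Hif3a: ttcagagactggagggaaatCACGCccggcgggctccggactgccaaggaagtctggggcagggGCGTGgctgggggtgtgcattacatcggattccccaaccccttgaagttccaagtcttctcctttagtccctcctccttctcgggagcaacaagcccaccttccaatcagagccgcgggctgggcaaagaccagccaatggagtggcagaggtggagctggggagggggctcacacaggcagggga
It held 2 matches, 230 and 186 bases before the start. Of 32851 promoters in that table, 38.6% held at least 1 match and 16.7% at least 2, and 7 of 8 promoters of the 7 members found there held at least 1. A match describes the letters and is no bound site.

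*Arnt* (ENSMUSG00000015522, chr3:95434388-95497240, plus strand), the partner of every α subunit, split the classes in CPM into a pair of higher and a pair of lower ones. With TMM scaling, epithelial-like cells instead lay between the higher pair and immune-like cells, with the limits given below. Stromal-like cells had 69.5, 82.2 and 72.9 CPM and ECs 72.6, 75.7 and 70.8, with overlapping ranges. Epithelial-like (43.2 ± 3.50) and immune-like cells (42.2 ± 3.92) also overlapped each other, and lay below both. With TMM scaling *Arnt* was nonetheless higher in epithelial-like than in immune-like cells (0.27, edgeR adjusted p = 0.0156), a call that was lost without mouse 2 (adjusted p = 0.115) or mouse 4 (adjusted p = 0.15). *Arnt* was higher in stromal-like than in immune-like cells by 0.68 (SE 0.09, edgeR adjusted p = 5.93e-06) and in ECs than in immune-like cells by 0.53 (SE 0.09, adjusted p = 0.000142). The difference between ECs and stromal-like cells was -0.15 with an SE of 0.09 and did not pass (adjusted p = 0.169). ECs exceeded epithelial-like cells by 0.26 (SE 0.09, adjusted p = 0.0189), a call that was lost without mouse 2 (adjusted p = 0.0898) or mouse 3 (adjusted p = 0.176). By type, arterial ECs were highest with 79.8, 88.8 and 116 CPM, overlapping myofibroblast-like cells (79.1 ± 7.62), and the order fell without a break to neutrophil-like cells (38.7 ± 3.94). Club-like, dendritic-like, alveolar macrophage-like, NK-like and basophil- or mast-like cells had the lowest mean levels, 24.1 to 31.8 CPM. Across the 20 types *Arnt* means thus ran from 24.1 to 94.8 CPM, and those of *Epas1* from 14.2 to 3068 CPM.

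*Vhl* (ENSMUSG00000033933, chr6:113623959-113631633, plus strand), the subunit that recognizes hydroxylated α subunits, differed little between classes in CPM, whereas with TMM scaling it was lower in ECs than in the other 3. Class means were 23.7 ± 2.33 CPM in stromal-like, 22.9 ± 1.05 in immune-like, 19.8 ± 1.18 in epithelial-like and 19.3 ± 1.57 in ECs. The stromal and immune ranges overlapped, as did the epithelial and EC ranges, while the immune range lay above the epithelial one. With that scaling the log2 difference of ECs from epithelial-like cells was -0.53 (edgeR adjusted p = 0.000678), that from stromal-like cells -0.42 (adjusted p = 0.00551, 0.0921 without mouse 4) and that from immune-like cells -0.50 (adjusted p = 0.00145). Without TMM the first and the last of these were -0.05 (adjusted p = 0.74) and -0.25 (adjusted p = 0.0858). The 3 comparisons among the other classes did not pass.

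The exception among types was dendritic-like cells, picked out after the values had been seen and given as a description. They had 38.2, 53.4 and 83.9 CPM of *Vhl* from 91 UMIs, above every other type in each mouse. A *Vhl* UMI was found in 14 of 52, 27 of 67 and 22 of 63 cells of mice 2, 3 and 4, with at most 4 UMIs in a cell and none in a cell marked as a doublet. That is 34.0% ± 6.73 of the cells at a median depth of 8278.5 UMIs, against 8.60% ± 0.61 of B cell-like cells at 3960.5 UMIs. At 1000 UMIs per cell, which left out 28 dendritic-like cells, the share was 5.29% ± 1.81, against 2.29% ± 0.15 in B cell-like and 2.42% ± 0.47 in myofibroblast-like cells. *Col13a1*-type fibroblast-like cells were next with 25.6 ± 1.29 CPM, and the lowest level was in neutrophil-like cells, 8.25 ± 4.85 CPM from 9 UMIs.

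*Egln1* (ENSMUSG00000031987, chr8:124908587-124949324, minus strand) encodes PHD2, the main oxygen sensor of most cells. Its class sums formed 4 steps that did not overlap. Stromal-like cells had 68.3, 75.4 and 79.8 CPM, epithelial-like cells 63.8, 65.4 and 59.2, ECs 54.2, 56.6 and 58.7, and immune-like cells 28.3, 31.4 and 26.6. The gap to the immune class was 1.23 from stromal-like (SE 0.09, edgeR adjusted p = 6.39e-09), 1.35 from epithelial-like (SE 0.09, adjusted p = 2.13e-09) and 0.72 on the log2 scale from ECs (SE 0.10, adjusted p = 8.55e-06). *Egln1* was lower in ECs than in stromal-like cells (log2 difference -0.51, adjusted p = 0.00011). Against epithelial-like cells the difference was -0.64 (adjusted p = 9.2e-06) with TMM but -0.15 (adjusted p = 0.148) without.

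Myofibroblast-like cells had the highest mean of the 20 types, with 81.5, 92.0 and 93.6 CPM of *Egln1*, above AT2-like cells (68.5 ± 1.46) in every mouse. Of the others only arterial ECs, which reached 85.3 CPM, overlapped them, and the 23 lymphatic EC-like cells had a pooled 119 CPM (45 UMIs, exact 95% interval 87.2 to 160). Myofibroblast-like cells exceeded *Col13a1*-type fibroblast-like cells by 0.62 (SE 0.17, edgeR adjusted p = 0.00402, 0.0517 without mouse 3). Both myofibroblast clusters were high, with 93.7 ± 9.61 and 83.6 ± 7.88 CPM. The types below overlapped from neighbour to neighbour down to B cell-like cells, which were lowest with 22.8 ± 1.86 CPM.

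*Egln2* (ENSMUSG00000058709, chr7:27158658-27166802, minus strand) encodes PHD1 and is overlapped on the opposite strand by *Cyp2t4*, which had 0 UMIs in the kept cells. It was the only member whose stromal mean was the lowest of the 4 classes. ECs had 72.6, 66.3 and 66.7 CPM, epithelial-like cells 64.4, 63.9 and 62.8, immune-like cells 48.0, 57.2 and 48.4, and stromal-like cells 44.6, 50.8 and 48.1, the last pair overlapping. It was lower in stromal-like than in epithelial-like cells, by 0.79 (SE 0.08, edgeR adjusted p = 5.47e-07), and lower than in ECs, by 0.41 (SE 0.09, adjusted p = 0.000918). In ECs against epithelial-like cells the sign again followed the scaling, with -0.38 (adjusted p = 0.000928) with TMM and 0.11 (adjusted p = 0.281) without. Venous ECs led the types with 81.7, 98.0 and 66.8 CPM, overlapping *Aplnr*-type ECs. The only neighbours in the order without overlap were NK-like (36.6 ± 5.0 CPM) and neutrophil-like cells (24.8 ± 2.56), which were followed by dendritic-like (24.5 ± 5.64) and alveolar macrophage-like cells (21.5 ± 20.5, 11 UMIs). The small difference between stromal-like and immune-like cells (-0.24, adjusted p = 0.0184) was lost without each mouse in turn (adjusted p = 0.0755, 0.137 and 0.0551 without mice 2, 3 and 4).

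*Egln3* (ENSMUSG00000035105, chr12:54178981-54203860, minus strand) encodes PHD3. Stromal-like cells had 7.35, 6.19 and 6.78 CPM from 119 UMIs, immune-like cells 1.74, 3.89 and 1.99 from 39, ECs 1.46, 0.780 and 0.546 from 9, and epithelial-like cells 0.240, 0.186 and 0.231 from 5. None of these ranges overlapped. The pooled stromal level was 30.4 times the epithelial level (exact 95% interval 12.7 to 95.4). In the edgeR fit *Egln3* was lower in epithelial-like than in stromal-like cells (log2 difference -4.43, SE 0.43, adjusted p = 2.85e-07) and higher in stromal-like than in immune-like cells by 1.19 (SE 0.31, adjusted p = 0.00249), whereas ECs and epithelial-like cells did not pass (1.49, SE 0.67, adjusted p = 0.0652). The EC to immune difference (-1.74, adjusted p = 0.00352) was lost without mouse 3 (-1.15, adjusted p = 0.119). Only the stromal-like class, where *Egln3* is high, reached the limit of the filter on low counts in every mouse. These class tests are therefore descriptions and add no support to the pattern.

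Most *Egln3* UMIs came from myofibroblast-like cells, but of the 20 types the level was highest in neutrophil-like cells. Neutrophil-like cells had 20.2, 25.6 and 16.9 CPM, counted as 24 UMIs in 14 of 466 cells. Myofibroblast-like cells had 12.1, 10.4 and 9.97 CPM, counted as 96 UMIs in 73 of 805 cells, and the 2 ranges did not overlap. Pooled over mice, the neutrophil level was 2.00 times the myofibroblast level (exact 95% interval 1.22 to 3.16) and 55.7 times that of B cell-like cells, which had 3 UMIs (16.9 to 289). A single neutrophil-like cell held up to 6 of the UMIs.

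At 1000 UMIs per cell, 2.01% ± 0.15 of neutrophil-like (53 shallower cells left out), 0.943% ± 0.02 of myofibroblast-like and 0.04% ± 0.03 of B cell-like cells kept an *Egln3* UMI. The unthinned shares were 2.96% ± 0.25, 9.0% ± 0.51 and 0.159% ± 0.14 at median depths of 2127, 10665 and 3960.5 UMIs. Smooth muscle-like cells had 4.90 ± 1.53 CPM from 20 UMIs and T cell-like cells 6.37 ± 6.01 CPM from 7. Of the 9 EC UMIs, 7 lay in 5 of the 23 lymphatic EC-like cells, a pooled 18.6 CPM (exact 95% interval 7.47 to 38.3), and 4 of the 7 were in cells marked as doublets. *Egln3* UMIs were at 0 in venous, *Car4*-type and *Aplnr*-type ECs, AT1-like, pericyte-like and both macrophage-like types, which allows up to 0.655 CPM in *Aplnr*-type ECs and 8.10 CPM in interstitial macrophage-like cells. The filter on low counts kept *Egln3* out of the test between types. Without it, *Egln3* was higher in neutrophil-like than in B cell-like cells (edgeR adjusted p = 2.03e-14, where 32.4% of genes were called) and in myofibroblast-like than in *Col13a1*-type cells (adjusted p = 0.000382, where 18.8% were called). The 10 genes of the dissociation response summed to 17262 to 20132 CPM in neutrophil-like cells, more than in any other type, and the part of tissue handling in the neutrophil values was not tested.

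The promoter of *Egln3* is given in the same way as that of *Hif3a* (RefSeq, GRCm38.p6, chr12:54203875-54204124, minus strand), because its UMIs, too, lay in few types.
Egln3: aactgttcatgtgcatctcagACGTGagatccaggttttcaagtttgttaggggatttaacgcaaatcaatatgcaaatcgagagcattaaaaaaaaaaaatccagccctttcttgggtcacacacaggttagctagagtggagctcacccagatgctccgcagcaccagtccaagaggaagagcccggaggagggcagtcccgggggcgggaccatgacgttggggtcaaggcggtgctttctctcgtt
It held 1 match in capitals, 229 bases before the start. The *Vhl* promoter held none in this window, and the other members found held 1 to 4.

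**Figure D4:**
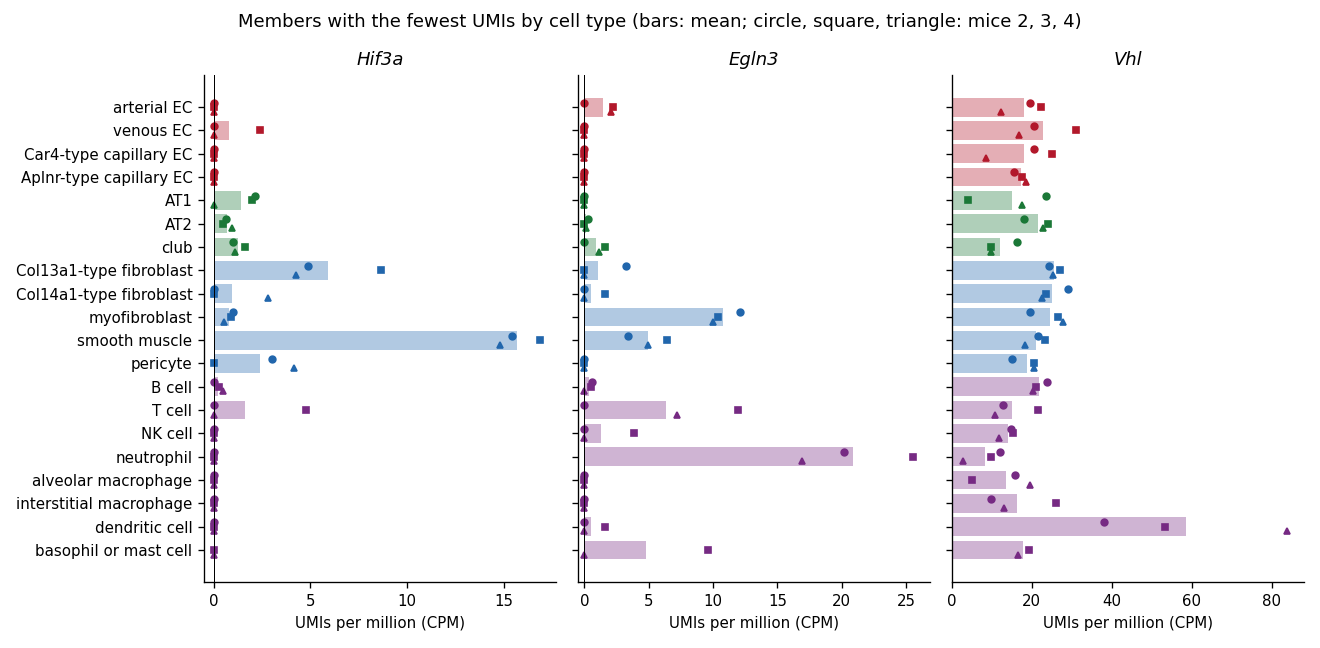
*Hif3a*, *Egln3* and *Vhl* (panels, x axes in CPM that start at 0 for *Vhl* and just below 0 for the others) in 20 cell types, with bars for the mean and points for mice 2, 3 and 4. *Hif3a* peaks in smooth muscle (14.8 to 16.9 CPM), *Egln3* in neutrophils (16.9 to 25.6) and myofibroblasts (9.97 to 12.1), and *Vhl* in dendritic cells (38.2 to 83.9).

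Across the family most class contrasts passed the test, as they did for most genes. In ECs against epithelial-like cells 7 of the 8 members passed, where 66.3% of all 14203 genes tested did, and in ECs against stromal-like cells 7 of 8 (55.7% of genes). The former include *Hif3a* on 1 EC and 18 epithelial-like UMIs (-3.13, edgeR adjusted p = 0.00819). That call was lost without mouse 2 (adjusted p = 0.0689) or mouse 4 (adjusted p = 0.0968). *Hif3a* and *Egln3* entered all these counts only through their stromal-like levels. The counts were 5 of 8 in ECs against immune-like cells (69.4% of genes), 6 of 8 in epithelial-like against stromal-like (67.2%), 6 of 8 in epithelial-like against immune-like (75.5%) and 7 of 8 in stromal-like against immune-like cells (76.4%). With 8 members these shares are near the background, and they are read here as no feature of the family. Without mouse 2 the count in ECs against epithelial-like cells was 4. Without TMM, 28.3% of calls were higher in epithelial-like than in stromal-like cells, against 46.5% with it, and 60.3% against 49.0% were higher in ECs than in immune-like cells. In epithelial-like against stromal-like cells *Vhl* (0.11 with TMM, -0.26 without) and *Egln1* (0.12 and -0.25) changed sign and passed without it (74.2% of genes did), and the *Epas1* difference was 0.47 (adjusted p = 0.00229) with TMM and 0.10 (adjusted p = 0.42) without.

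**Figure D5:**
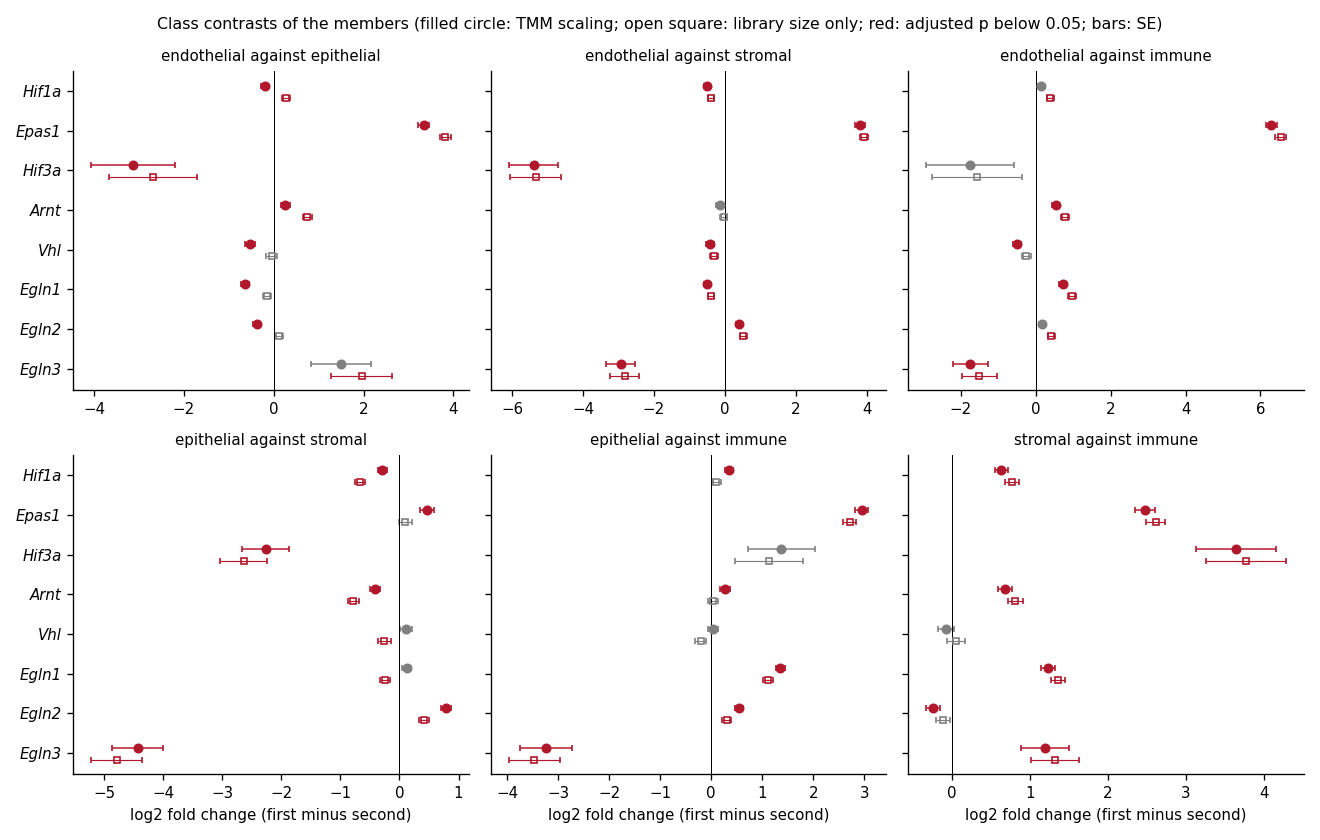
Log2 fold changes of the 8 genes (rows) in the 6 class contrasts (panels, first class minus second), with TMM scaling (filled circles) and with library size only (open squares), red where the edgeR adjusted p was below 0.05 and bars for the SE. *Epas1* in ECs stays large under both scalings (3.34 and 3.82 against epithelial cells), while *Hif1a* and *Egln2* change sign in that panel and *Vhl* and *Egln1* in epithelial against stromal cells; *Vhl* also does so, without passing, in the last 2 panels.

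Within classes, 6 members reached the counts needed for the test between types. None of the 6 passed between *Car4*-type and *Aplnr*-type capillary ECs, where 9.49% of 12307 genes did, or between arterial and *Aplnr*-type ECs (16.8%), and none passed between alveolar and interstitial macrophage-like cells (15% of genes). At an unadjusted p below 0.05 the counts were 2 (*Epas1* and *Egln2*), 1 (*Epas1*) and 1 (*Egln2*), and DESeq2 called 0 in each. *Egln2* in the macrophage contrast (-1.28, edgeR adjusted p = 0.0632) passed without mouse 3 (-2.31, adjusted p = 0.04, 10.2% of genes) and without TMM (adjusted p = 0.0165, 15.6% of genes). The macrophage types had few UMIs of the members, 6 to 47 for each gene and type.

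AT1-like cells, the thin cells of gas exchange, had less of 4 of the 6 members than AT2-like cells, which make surfactant (33.4% of genes passed). *Epas1* was 46.2, 40.0 and 75.1 CPM in AT1-like and 164, 173 and 186 CPM in AT2-like cells, a log2 difference of -1.87 (SE 0.27, edgeR adjusted p = 5.86e-08). *Hif1a* (-0.73, adjusted p = 0.000135), *Egln2* (-0.50, adjusted p = 0.00792) and *Egln1* (-0.41, adjusted p = 0.043) were lower too. The last 2 did not pass without TMM, and *Egln1* did not pass without mouse 4 (-0.17, adjusted p = 0.644) nor *Egln2* without mouse 2 (-0.53, adjusted p = 0.0607). With TMM 51.5% of calls were higher in AT1-like cells, against 71.4% without it.

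AT1-like cells came from 2 clusters that differed in *Epas1*. The larger one (129 cells, median 6208 UMIs) had 13.8, 10.5 and 7.61 CPM, below the mean of B cell-like cells. The other (37 cells, median 35994 UMIs) had 120 CPM in mouse 4, the mouse with at least 10 of its cells, and its AT2 markers summed to 117514 CPM, against 803 to 4938 CPM in the larger cluster. Without the deep cluster, a choice made after seeing the data, *Epas1* was lower in AT1-like than in AT2-like cells by a log2 difference of -4.49 (SE 0.39, adjusted p = 1.73e-14), and 5 of the 6 members passed (36.6% of genes), *Vhl* among them (-0.87, adjusted p = 0.0253). *Vhl* missed the threshold with both clusters (-0.58, adjusted p = 0.0616) but passed in 7 of 12 other settings, such as without mouse 2 (-0.98, adjusted p = 0.0239). The part of AT2 RNA in the deep cluster was not tested.

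Myofibroblast-like cells had less *Epas1* than *Col13a1*-type fibroblast-like cells, 46.3, 53.2 and 41.0 against 142, 207 and 106 CPM (-1.82, SE 0.26, edgeR adjusted p = 6.43e-08). Together with the higher *Egln1* given above, 2 of the 6 members passed, where 29.7% of genes did. The EC markers summed to 26.8 to 403 CPM in the *Col13a1*-type and to 17.6 to 56.7 CPM in the myofibroblast-like cells, and their part in the *Epas1* difference was not tested.

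Neutrophil-like cells differed from B cell-like cells in 3 of the 6 members, where 50.6% of genes passed. *Egln2* was lower, 24.2, 27.5 and 22.5 against 65.8, 70.6 and 61.4 CPM (-0.81, SE 0.26, edgeR adjusted p = 0.00839, 0.0517 without mouse 3). *Epas1* was 40.4, 21.6 and 101 CPM in neutrophil-like cells against 35.4, 21.2 and 18.5 CPM (1.68, SE 0.36, edgeR adjusted p = 9.5e-05), but without mouse 4 the difference did not pass (0.65, adjusted p = 0.237). The EC markers of neutrophil-like cells ranged from 57.0 to 245 CPM over the mice, and whether these cells made them was not tested. Their median depth was 2127 UMIs, against 3960.5 in B cell-like cells, and free RNA was not removed. *Egln1* averaged 27.5 CPM in neutrophil-like and 22.8 CPM in B cell-like cells (0.77 higher with TMM, SE 0.32, edgeR adjusted p = 0.0411). That call was lost in 10 of 12 other settings, among them without each mouse in turn and with the mouse as a block (adjusted p = 0.0507). With TMM 45.3% of calls were higher in neutrophil-like cells, against 29.2% without it and 59.2% with DESeq2.

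The other parts of the HIF pathway were followed with lists of other regulators (12 genes), glycolysis targets (16) and other hypoxia targets (24, of which 23 were tested between classes). Their counts are those with TMM scaling and were not recomputed without it, so medians are given beside those of all genes. Of all genes tested, 66.3% passed in ECs against epithelial-like cells, 55.7% against stromal-like and 69.4% against immune-like cells, and the counts of each list between classes are to be read against such shares. Among the regulators, 2 were higher and 4 lower in ECs than in epithelial-like cells (median log2 difference -0.18, against 0.05 over all genes), 1 and 4 against stromal-like cells (-0.04 against -0.06) and 3 and 4 against immune-like cells (0.04 against -0.02). *Cited2*, which competes with HIFs for their coactivator, was 17.6 CPM in ECs and 252 CPM in epithelial-like cells (-4.31, SE 0.21, edgeR adjusted p = 7.86e-11). *Arnt2*, a relative of *Arnt*, was 7.54 CPM in stromal-like and 0.527 CPM in immune-like cells (3.71, SE 0.42, adjusted p = 1.07e-06). In epithelial-like cells 4 regulators were higher and 4 lower than in stromal-like and 7 higher and 3 lower than in immune-like cells, and in stromal-like against immune-like cells 6 were higher and 3 lower.

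Among the glycolysis genes, calls in ECs were mostly lower. Against immune-like cells 2 of the 16 were higher and 14 lower in ECs, with a median log2 difference of -1.22 (-0.02 over all genes). Against epithelial-like cells 3 were higher and 8 lower (median -0.61, 0.05 over all genes) and against stromal-like cells 4 and 8 (median -0.23, -0.06 over all genes). *Hk2*, an inducible hexokinase, had no UMI in ECs and 17.7 CPM in epithelial-like cells, which were at least 57.0-fold higher. *Slc16a3*, which exports lactate, was 1.42 CPM in ECs and 78.7 CPM in immune-like cells (-5.98, SE 0.33, edgeR adjusted p = 3.09e-10). Of the same genes, 9 were higher and 4 lower in epithelial-like than in stromal-like cells, 3 higher and 9 lower in epithelial-like than in immune-like cells, and 0 higher and 10 lower in stromal-like than in immune-like cells (median -0.80, 0.02 over all genes), where 67.2%, 75.5% and 76.4% of all genes passed.

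Among the other hypoxia targets the ECs had more genes higher than lower. Against immune-like cells 12 of 23 were higher and 1 lower in ECs (median 0.78, -0.02 over all genes), against epithelial-like cells 13 and 7 (0.45 against 0.05), and against stromal-like cells 12 and 11 (0.25 against -0.06). The members of this list that led were *Edn1*, the vasoconstrictor endothelin 1, with 240 CPM in ECs and 0.438 CPM in immune-like cells (8.59, SE 0.26, edgeR adjusted p = 4.55e-13), the chemokine *Cxcl12* with 791 CPM in ECs and 1.30 CPM in epithelial-like cells (8.70, SE 0.26, adjusted p = 5.38e-13) and the growth factor *Pdgfb* with 285 CPM in ECs and 2.21 CPM in stromal-like cells (6.90, SE 0.23, adjusted p = 2.13e-12). These are also ordinary products of endothelium. In epithelial-like against stromal-like cells 11 were higher and 9 lower, in epithelial-like against immune-like 11 and 6, and in stromal-like against immune-like cells 14 and 7 (median 1.09, 0.02 over all genes), led by the matrix enzyme *Loxl2* (399 and 1.49 CPM).

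Between types, AT1-like cells had more of 6 and less of 3 of the 15 glycolysis genes tested (median 0.42 against -0.07 over all genes, of which 33.4% passed), with *Pfkfb3* at 36.1 against 2.50 CPM. They also carried far more *Vegfa*, the main angiogenic factor, 2007 against 94.3 CPM (4.18, SE 0.19, edgeR adjusted p = 1.53e-25). The lower *Epas1* and *Hif1a* of AT1-like cells are given above, and their relation to *Vegfa* was not tested. The AT1-like sums here include the deep cluster with many AT2 marker UMIs. In arterial ECs 10 of 22 hypoxia targets were higher and 1 lower than in *Aplnr*-type ECs (median 0.64 against -0.01 over all genes, of which 16.8% passed), led by the crosslinking enzyme *Lox* (214 against 0.568 CPM), with 5 of 10 dissociation genes higher as well. In neutrophil-like cells 12 of 15 glycolysis genes were higher and 1 lower than in B cell-like cells (median 1.61 against -0.22 over all genes, of which 50.6% passed). In the same contrast 12 of 22 hypoxia targets were higher and 2 lower (median 1.93), and all 10 dissociation genes were higher (5.97), beside that -0.22. In the *Car4*-type EC contrast 3 of 15 glycolysis genes and 6 of 22 hypoxia targets passed (9.49% of all genes), in the myofibroblast contrast 8 and 13 (29.7%), and in the macrophage contrast 4 and 3 (15%). Of the 11 other regulators tested between types, against the same shares of all genes, 0 passed between *Car4*-type and *Aplnr*-type ECs, 1 between arterial and *Aplnr*-type ECs, 5 between AT1-like and AT2-like cells, 2 in the myofibroblast, 6 in the neutrophil and 3 in the macrophage contrast.

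The dissociation genes, which rise while tissue is taken apart, differed between classes too. They were 6 higher and 1 lower of 10 in ECs than in epithelial-like cells, 2 and 7 against stromal-like and 2 and 7 against immune-like cells, 0 and 9 in epithelial-like against stromal-like, 1 and 9 against immune-like, and 2 and 8 in stromal-like against immune-like cells. Their summed class means were 1526 CPM in ECs, 371 in epithelial-like, 1310 in stromal-like and 2171 in immune-like cells. The immune-like value joins types far apart, with 18974 CPM in neutrophil-like cells but 236 in B cell-like, 317 in T cell-like and 231 in NK-like cells. The counts against immune-like cells rest on the same mixture. Between types, 1 of 10 passed in the *Car4*-type, 2 in the AT1, 5 in the myofibroblast and 2 in the macrophage contrast. The shares of all genes that passed are those given above for each contrast. The part of the dissociation genes in the values of the HIF pathway was not tested.

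The genes most like each member over the 20 types were found by the Pearson correlation of log2(CPM + 10), over 12109 genes that reached 20 CPM in some type. The types share the 3 libraries, so the correlations are descriptions. *Epas1* had the closest neighbours among the common members, *Sox13* (r = 0.944), *Caskin2* (0.937) and *Pik3r3* (0.919), which also ranked 1, 2 and 6 by Spearman correlation. *Arnt* was closest to *Zfp68* (0.928), *Dnmt3a* (0.911) and *Mbd5* (0.910), and *Egln1* to *Alkbh5* (0.833), *Usp9x* (0.826) and *Tmem110* (0.817). For *Egln2* they were *Mkln1* (0.815), *Suv420h1* (0.805) and *Fbxl19* (0.804), and for *Hif1a* *Fblim1* (0.743), *Dnajb5* (0.741) and *Thap11* (0.738), the lowest of the 8. *Hif3a* (*Rbpms2*, 0.966, *Npy1r*, 0.949, and *E030013I19Rik*, 0.947), *Vhl* (*Ngfr*, 0.787, *Apol7c*, 0.773, and *Tlr11*, 0.771) and *Egln3* (*Pnrc1*, 0.795, *Il1rap*, 0.778, and *R3hdm4*, 0.775) had the fewest UMIs of the 8. By Spearman correlation, 19 of the 24 named genes ranked below the third place of their member. Among members the correlation was 0.690 between *Arnt* and *Hif1a*, 0.585 between *Arnt* and *Epas1*, and only 0.247 between *Epas1* and *Hif1a*.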

How the data were processed

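Per the labels, whole lungs were digested to single cells and 1 10x Genomics 3′ library was made per mouse. The authors deposited unnormalized UMI counts for each gene in each cell, made with Cell Ranger 3.0.2 against mm10 (submitters' processing notes), and the use of strand in counting is not given in the sources used here. Reads of genes that overlap on opposite strands cannot be told apart without it. In the annotation, *Hif1a*, *Epas1* and *Arnt* overlap genes on the same strand, and *Hif1a* and *Hif3a* genes on the opposite strand, that were not analysed here.

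Cells were kept from 200 detected genes upwards and up to a mitochondrial share of 20% (median 6033.5 UMIs). Scrublet scores (scanpy 1.11.5) marked 156 cells as doublets, at a fixed 0.8% per 1000 cells, and these were kept. Seurat 5.3.0 with sctransform 0.4.2 (R 4.3.3) clustered the cells on 3000 variable genes less the 14 of the HIF pathway among them (30 components, resolution 0.8), giving 31 clusters. ECs were clustered again. Sums needed at least 10 cells per mouse, so basophil- or mast-like cells entered from 2 mice. CPM values are UMIs of a sum scaled to a total of 1e6.

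Tests were edgeR 4.0.16 quasi-likelihood fits with TMM scaling over 14203 genes and 12 sums (classes) or 12307 genes and 59 sums (types), with Benjamini-Hochberg adjusted p below 0.05 as the threshold. On simulated data with 200 changed genes, 100% were recovered for ECs against epithelial cells (14121 genes) and for *Car4*-type against *Aplnr*-type ECs (12442 genes). The changed genes had median log2 differences of 2.03 and 1.94. They were drawn among genes with enough counts, and the simulated spread was fixed. Recovery of smaller differences, such as most of those of the members, was not tested. Same-numbered sums come from the same animal. Their deviations over 3779 genes correlated by 0.064 to 0.373 between classes (18 pairs), and blocking on the mouse was an alternative. The chi-square of library pairs over genes was 8.68 to 36.0 times its degrees of freedom, so none was a copy of another. Intervals and floors (3 counts) cover counting error only.

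Named genes were the 8 members, up to 3 called genes with the largest change per list and comparison, and 3 like genes per member. The members, lists and comparisons were chosen with earlier results of these data known. Alternatives were DESeq2 1.42.0, scaling without TMM, all genes with a count, the block, leaving out each mouse, other cell filters, doublets removed, resolutions 0.4 and 1.2, the pathway genes kept in the clustering, classes from each cell's own UMIs, thinning and Spearman correlation. Positions are from GENCODE M21 (GRCm38) and promoters from RefSeq.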

Additional observations from a re-analysis of the deposited data

How the results depend on the processing

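Of 1044 log2 differences of single members under other settings, 937 kept direction and side of the threshold, 29 changed sign without passing in either fit (7 of them without TMM), 46 lost and 28 gained the call, and 4 changed sign with a call. The last 4 came without TMM: in ECs against epithelial-like cells *Egln2* 0.11 and *Hif1a* 0.28, and in epithelial-like against stromal-like cells *Vhl* -0.26 and *Egln1* -0.25. The cause was not tested. Members called without TMM were 2 between AT1-like and AT2-like and 1 between macrophage-like cells. Without the filter on low counts they were 1 in *Car4*-type and 1 in arterial against *Aplnr*-type ECs, both *Epas1*, and 4 in myofibroblast-like against *Col13a1*-type cells, where *Hif3a* and *Egln3* were then tested. The replicate block gave 1 in arterial against *Aplnr*-type ECs and, apart from *Egln1* in neutrophil-like cells, the calls named in the report held under it. Leaving out 1 mouse gave 4 to 5 in ECs against epithelial-like cells (4 without mouse 2), and 0 to 1 in arterial ECs, 1 to 3 in myofibroblast-like, 1 to 2 in neutrophil-like and 0 to 1 in macrophage-like cells, the shifts past 1.5 times in these 4 being without mouse 3. Without mouse 4, *Egln1* and *Epas1* both lost their neutrophil call, so that 1 of the 3 held. *Egln3* then reached the test and passed there (edgeR adjusted p = 1.06e-05) and in myofibroblast-like cells (adjusted p = 0.047). Neutrophil-like and myofibroblast-like cells are types where *Egln3* is high, through which the filter on low counts could keep it. These *Egln3* calls are therefore descriptions and add no support to the pattern. With doublets removed, arterial against *Aplnr*-type ECs gave 2 and the macrophage contrast 1. Resolution 0.4 gave 1 for arterial and 4 for myofibroblast-like cells, and resolution 1.2 gave 1 for arterial and 1 for neutrophil-like cells. The log2 *Epas1* to *Hif1a* ratio was 0.82 in epithelial-like and -0.21 in stromal-like cells with 500 genes and 10% mitochondrial UMIs, 0.90 in epithelial-like cells with doublets removed, and 4.59 in ECs with classes from own UMIs, where the EC share of *Epas1* was 78.0%. Without each mouse the EC ratio was 4.54 to 4.57 and the share 67.2% to 69.0%. Leaving the deep AT1 cluster out was chosen after seeing the data. Over all genes, calls without mouse 4 dropped to 562 from 1168 in *Car4*-type, 1351 from 2069 in arterial, 2711 from 4109 in AT1-like and 975 from 1848 in macrophage-like cells, the last 1174 without mouse 2. The stricter cell filter gave no value for the AT1 and macrophage contrasts, nor resolution 0.4 for the latter. Depth limits *Hif3a*, *Egln3* and the macrophage types.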

Other observations

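Among the 7 unnamed clusters, one of 453 cells with a median of only 843 UMIs was led by *Hpgd*, *Sox7* and *Epas1*. Its *Epas1* level was 5107, 5269 and 5069 CPM in mice 2, 3 and 4, above every named type, and its median mitochondrial share was 0.559%. *Hif1a* there was 85.0 ± 7.02 CPM. A cluster of 42 cells led by *Rgs5*, *Higd1b* and *Cox4i2* (median 741 UMIs) had 1924, 1634 and 1376 CPM of *Epas1* from 71 UMIs, each above the highest pericyte-like value. *Epas1* was also found in a dividing cluster of 142 cells (*Top2a*, *Mki67*) at 1124, 579 and 824 CPM. The unnamed cells held 11.4% ± 2.40 of all *Epas1* UMIs and were given no class because their class markers were too low. Of the classes, the cluster of 453 cells scored highest for endothelial markers, though below the other cells (log2 -0.19). The cluster of 42 cells scored highest for pericyte markers among the stromal types (log2 2.98), with low stromal markers (log2 -1.28). The EC share of *Epas1* UMIs given above leaves out any ECs among the unnamed cells.

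Within *Aplnr*-type capillary ECs, the sub-cluster led by *Cxcl10* and *Sema3c* (258 cells) had 3276 ± 120 CPM of *Epas1* and the one led by *Wif1* and *Cxcr4* (184 cells) 2832 ± 32.8 CPM, without overlap between mice. These values are descriptions, since the cells were clustered on the same data.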
